A study of Mus musculus with 38 samples.

Results

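The shared H3K27ac sites are the genomic regions that carried a peak of acetylated histone H3 lysine 27 (H3K27ac) in cells with the full-length form of SALL4 (SALL4-WT) and in cells with SALL4-delN12. They were chosen from the deposited peak lists as SALL4-WT peaks with a score of at least 100 that overlap, by 1 bp or more, a SALL4-delN12 peak with a score of at least 100. The rule gave 10398 sites, which are 94.9% of the 10960 SALL4-WT peaks of that score and overlap 10405 (35.3%) of the 29472 SALL4-delN12 peaks of that score. The score is the one MACS gives a peak, and a higher score means a smaller p-value against the background. The lists as deposited hold 19841 and 45599 peaks, and the same overlap gives 17628 sites with every peak and 4483 at a score of at least 200.

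The cells were mouse embryonic fibroblasts (MEFs) of embryonic day 13.5 into which retroviral vectors had brought Sall4 alone, in full length or without the N-terminal stretch that names the delN12 form. Both forms were cultured in the same reprogramming medium, iCD3, which contains vitamin C, mLIF, bFGF, CHIR99021, SGC0946, an LSD1 inhibitor and Y27632, and BMP4 was not added. Cut&Tag of SALL4 and of H3K27ac was done at day 6, and ATAC-seq and RNA-seq at days 1, 5, 9 and 11, with ATAC-seq of MEFs as the starting point. Each form, day and assay has 1 sample in the files, made from a whole culture, and Cut&Tag replicates had been merged before peaks were called, so a comparison of the forms at 1 day has no replicate check. The 4 days of a course are different states rather than replicates, a test with day as a block was not run, and no p-value is given. In such mixed cultures a change in the share of cells with a site or transcript and a change within cells cannot be told apart.

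H3K27ac marks active promoters and enhancers. The acetyltransferases p300 and CBP write it, bromodomain proteins read acetylated chromatin, and deacetylases, among them HDAC1 and HDAC2 of the nucleosome remodeling and deacetylase complex NuRD, remove it. SALL4 is a zinc finger transcription factor of early embryos and germ cells that binds NuRD through its N terminus, the stretch which the delN12 form lacks.

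Of the shared sites, 8264 (79.5%, exact 95% interval 78.7 to 80.2) lay within 2 kb of a transcription start site and are called promoter sites, and 2134 (20.5%) were distal. The sequences of a few sites show the kinds of DNA behind the results. Each is the middle 200 bp of the highest-scoring ATAC-seq peak of SALL4-WT cells at day 5 inside the site, on the plus strand of GRCm38.p6 (mm10) from RefSeq, in lower case with matches to the motif letters searched in capitals. Pafah1b1 (chr11:74723900-74724099), a dynein regulator, stands for strong promoters of widely expressed genes. Gm26917 (chr17:39845811-39846010) is an annotated noncoding gene in a stretch that holds a copy of the ribosomal RNA repeat, and, by the lower of both scores, it is the highest promoter site among those open in every ATAC-seq library. Fn1 (chr1:71653124-71653323), the gene of fibronectin, and Lama1 (chr17:67697176-67697375), the gene of the laminin alpha chain of early basement membranes, are among the genes with a shared promoter site whose RNA differed most between the forms at day 11. By the lower of both scores Kcnip1 (chr11:34010122-34010321, an intron) is the strongest distal site open in every library, and the strongest distal site with SALL4 peaks of both forms. Gm13469 (chr2:46371143-46371342, intergenic) is the strongest distal site without a MEF ATAC peak that was open late in both forms. 2700054A10Rik (chr17:13556355-13556554, an intron) is the strongest distal site with an ATAC peak in MEFs and none at day 11 of either form. The sites of Pafah1b1, Fn1 and Lama1 were picked for printing after their values had been seen.
Pafah1b1 promoter site: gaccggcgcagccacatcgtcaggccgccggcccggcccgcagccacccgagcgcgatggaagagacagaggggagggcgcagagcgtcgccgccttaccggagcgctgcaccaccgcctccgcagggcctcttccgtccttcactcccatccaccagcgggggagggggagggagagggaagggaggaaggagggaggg
Gm26917 promoter site: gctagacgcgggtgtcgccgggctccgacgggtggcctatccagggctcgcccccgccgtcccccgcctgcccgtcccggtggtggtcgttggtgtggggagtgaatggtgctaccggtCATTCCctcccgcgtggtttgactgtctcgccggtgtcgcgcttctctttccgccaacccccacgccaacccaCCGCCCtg
Fn1 promoter site: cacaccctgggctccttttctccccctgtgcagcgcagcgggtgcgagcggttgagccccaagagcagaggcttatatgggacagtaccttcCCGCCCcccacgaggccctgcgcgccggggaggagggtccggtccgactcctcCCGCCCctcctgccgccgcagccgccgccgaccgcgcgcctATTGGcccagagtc
Lama1 promoter site: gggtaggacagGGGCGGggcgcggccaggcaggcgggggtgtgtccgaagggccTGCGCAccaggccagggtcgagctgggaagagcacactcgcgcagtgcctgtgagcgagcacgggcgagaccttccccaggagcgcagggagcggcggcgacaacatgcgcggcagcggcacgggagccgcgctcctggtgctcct
Kcnip1 distal site: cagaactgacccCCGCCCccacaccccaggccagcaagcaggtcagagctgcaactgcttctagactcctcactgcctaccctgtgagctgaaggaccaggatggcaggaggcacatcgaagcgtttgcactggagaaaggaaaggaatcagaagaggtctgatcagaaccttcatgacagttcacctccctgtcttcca
Gm13469 distal site: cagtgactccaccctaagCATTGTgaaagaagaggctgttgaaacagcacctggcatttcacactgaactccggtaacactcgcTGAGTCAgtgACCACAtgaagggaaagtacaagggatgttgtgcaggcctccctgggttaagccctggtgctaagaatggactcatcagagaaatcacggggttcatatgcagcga
2700054A10Rik distal site: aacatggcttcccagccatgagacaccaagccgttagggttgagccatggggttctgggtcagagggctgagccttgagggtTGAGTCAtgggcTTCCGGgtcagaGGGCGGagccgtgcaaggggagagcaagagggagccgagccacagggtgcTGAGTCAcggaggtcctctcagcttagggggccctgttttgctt

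The Pafah1b1, Fn1 and Lama1 windows had a GC content of 72.0% to 74.0%, with 20, 20 and 22 CpG dinucleotides. The Kcnip1 and Gm13469 windows had 56.0% and 50.5% GC and 3 and 4 CpG. The capitals are letters of the GC box GGGCGG in the Fn1, Lama1 and Kcnip1 windows, the CCAAT box CCAAT in Fn1, the NRF1 core TGCGCA in Lama1, and AP-1 TGANTCA, RUNX TGTGGT and SOX ACAATG in Gm13469. The 2700054A10Rik window holds 2 AP-1 matches, a GC box and the ETS letters CCGGAA. The Gm26917 window holds a GC box and the TEAD letters GGAATG, and the Pafah1b1 window holds none of the 13 strings searched.

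The promoter windows printed here are richer in GC than whole sites. The promoter sites had a median GC content of 54.8% and a median observed-over-expected CpG ratio of 0.643, and 60.0% of them reached a ratio of 0.6, a usual bound for CpG islands. The distal sites had a median GC content of 49.0% and a median CpG ratio of 0.219, and 2.53% of them reached 0.6. Of the promoter peaks that had a score of at least 100 in SALL4-WT cells only, 19.6% reached a CpG ratio of 0.6. Of those that had it in SALL4-delN12 cells only, 24.0% did. Such peaks are called SALL4-WT-only and SALL4-delN12-only, and some overlap a weaker peak of the other form.

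The motif letters, counted on either strand in 8250 promoter and 2109 distal windows of 200 bp, also parted the classes. Among promoter sites the GC box was found in 57.2% of windows, beside 35.9% of all 34146 promoter ATAC peaks of the same library. The ETS letters were found in 22.3% (11.6% of all), the NRF1 core in 10.2% (5.82%) and the cyclic AMP response letters TGACGTC in 3.96% (2.29%). AP-1 letters were less frequent at these promoters than among all promoter ATAC peaks, with 5.38% against 14.4%. The CCAAT box, at 22.9% (21.3%), was near the share of all promoter peaks. The promoter windows thus held more GC box, ETS, NRF1 and cyclic AMP response strings and fewer AP-1 strings than all promoter ATAC peaks. Each window, promoter or distal, is at the highest-scoring peak of its site, while the comparison holds weak peaks too. The sets were not matched for peak score or distance to a start site.

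Distal sites were the reverse with regard to AP-1, the family of FOS and JUN proteins. AP-1 letters were found in 43.6% of distal windows, beside 37.0% of all 64248 distal ATAC peaks. The share for TEAD was 20.2% (18.9% of all), for RUNX 21.1% (21.7%) and for GATA letters AGATAA 7.35% (7.46%), all near the share among distal ATAC peaks. FOX letters TGTTTAC, at 3.94% (3.26%), were rarer but in relative terms about as far above that share as AP-1. The letters of the GC box were found in 253 of the 2109 distal windows, beside 6.94% of all distal peaks. ETS letters, at 5.74% (3.43%), and cyclic AMP response letters, at 1.85% (1.10%), were above the share of all peaks at distal sites as at promoters. The CCAAT box, at 19.7% (22.8%), and SOX letters, at 8.87% (10.6%), were below it. With windows of 100 bp the GC box share at promoters was 36.5%, beside 23.1% of all promoter peaks, and the AP-1 share at distal sites was 29.1%, close to the 28.0% of all distal peaks. A match describes the letters in the window and does not show that a factor was bound.

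The scores chose the sites, so scores and widths are given as a description only. The shared sites cover 21.7 Mb in SALL4-WT cells, with widths from 331 to 7744 bp and a median of 1863 bp. The peaks they overlap in SALL4-delN12 cells have a median width of 2253 bp. The median score was 185 in SALL4-WT cells and 391 in SALL4-delN12 cells. The score was higher in SALL4-delN12 cells at 10061 sites (96.8%) and higher in SALL4-WT cells at 337, with a median ratio of 1.97 and quartiles of 1.62 and 2.39. A score grows with the number of reads as well as with enrichment, the numbers of reads are unknown, and the SALL4-delN12 list holds more peaks as a whole, so depth and acetylation cannot be told apart in this ratio.

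Promoter and distal sites had nearly the same median ratio, 1.97 and 1.96, but distal sites varied more, with quartiles of 1.46 and 2.61 against 1.65 and 2.35. The scores of both forms ran together over the sites (Spearman's rho 0.74, a description over sites that share their libraries). At the threshold, 85 sites had a SALL4-WT score of 100 to 101, the lowest at 100.01. Just outside it, 114 SALL4-WT peaks scored 99 to 100, the highest at 99.99, and 88 of these overlapped a SALL4-delN12 peak of sufficient score. Of the 562 SALL4-WT peaks that are not shared, 286 overlapped a weaker SALL4-delN12 peak, and of the 19067 SALL4-delN12 peaks that are not shared, 5364 overlapped a weaker SALL4-WT peak.

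**Figure D1:**
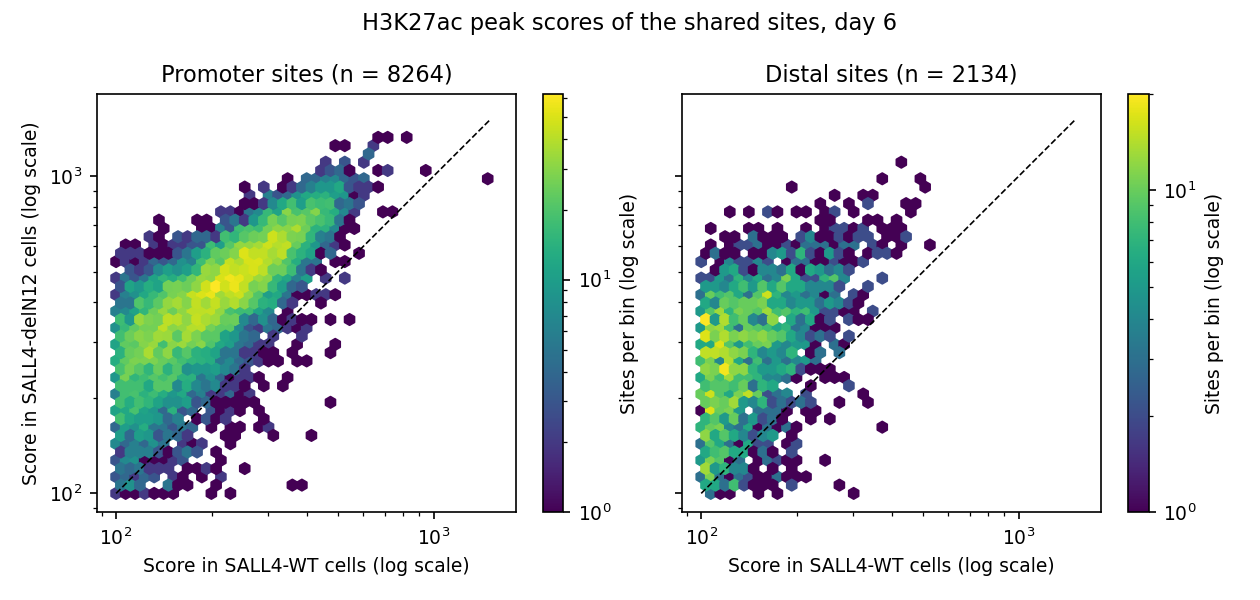
H3K27ac peak scores of the shared promoter sites (left, n = 8264) and distal sites (right, n = 2134) in SALL4-WT cells (x axis) and SALL4-delN12 cells (y axis) at day 6, both on log axes without further unit. Color gives the number of sites per bin, the dashed line marks equal scores, and 96.8% of sites lie above it.

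By the lower of both scores, the strongest promoter sites were at the start sites of Sall4, Gm26917, Ppp2r3d, Pafah1b1 and CAAA01118383.1. Pafah1b1 scored 757.6 in SALL4-WT and 761.1 in SALL4-delN12 cells (chr11:74722775-74725139), and was among the few strong sites with nearly equal scores. Ppp2r3d, a gene of a regulatory subunit of protein phosphatase PP2A, scored 820.2 and 1368.5. Gm26917 scored 933.2 and 1030.9 over the ribosomal repeat copy. CAAA01118383.1 scored 722.1 and 1026.3 on a scaffold that is assigned to chromosome 4 without a position in it. Reads from many copies can gather at such stretches, and their part in these scores was not tested. Only 6 shared sites are on scaffolds outside the assembled chromosomes.

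The highest score of all, 1467.3 in SALL4-WT cells and 1008.4 in SALL4-delN12 cells, was at Sall4 itself (chr2:168754350-168756955). This site covers an exon of Sall4 that runs from 168754434 to 168756800, and the ATAC-seq peak of SALL4-WT cells at day 5 begins at 168754431 and ends at 168756721. The 8 ATAC-seq libraries of cells with a SALL4 form had a peak there whose ends lay close to the exon's ends, and the MEF library had none. A second site (chr2:168749989-168750715, scores 168.7 and 257.9) reached into the last exon, which ends at 168750460. The RNA level of Sall4 was 549, 491, 518 and 290 FPKM (sequenced fragments scaled to transcript length and library size) at days 1, 5, 9 and 11 of SALL4-WT cells and 809, 623, 971 and 428 FPKM in SALL4-delN12 cells, from the delivered and the cell's own copies together. Reads of the delivered cDNA and of the cell's own gene cannot be told apart at these sites. Without them and without the sites on such scaffolds outside the assembled chromosomes, 10390 sites remain and the shares given here for promoters, SALL4 and open chromatin keep their values.

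The strongest distal sites were near Kcnip1, Gm12801, Zfp869, Atxn7l1os1 and Pura. The Kcnip1 site (chr11:34009330-34011330, an intron of this gene of a potassium channel interacting protein) scored 524.9 and 601.0. The other 4 had scores of 443.1 to 505.0 in SALL4-WT cells and of 829.2 to 980.3 in SALL4-delN12 cells. All 5 sites had an ATAC peak in the 9 libraries. Distal sites in general were weaker than promoter sites, with a median SALL4-WT score of 138 against 202 and a median width of 1616 bp against 1931 bp.

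Promoters took a larger share of the shared sites than of the peaks that reached the score in 1 form only. Promoter sites made up 79.5% of the shared sites, 39.9% of the 562 SALL4-WT-only peaks and 29.4% of the 19067 SALL4-delN12-only peaks. Of the distal shared sites, 1076 (50.4%) were intergenic, 835 (39.1%) lay in introns and 223 (10.4%) overlapped an exon, and their median distance to a start site was 13824 bp. At a score minimum of 200 in both forms the promoter share was 92.7%.

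A SALL4 peak of SALL4-WT cells (score of at least 100) lay over 82.6% of the shared sites (interval 81.9 to 83.3), and a SALL4 peak of SALL4-delN12 cells over 57.0% (56.1 to 58.0). The intervals cover counting error only. At a SALL4 score minimum of 200 the shares were 50.2% and 27.8%. Both forms of SALL4 had a peak at 54.7% of the sites, SALL4-WT alone at 27.9%, SALL4-delN12 alone at 2.32% and neither at 15.1%. The SALL4 lists themselves are of similar length, with 38773 peaks in SALL4-WT and 41577 in SALL4-delN12 cells at this score, and 22.3% and 14.4% of them lay in shared sites. The shared sites thus carried the SALL4-WT peak more often than the SALL4-delN12 peak, although all of them were acetylated in both cultures. This order was not particular to them. ATAC peaks of SALL4-WT cells at day 5 without any H3K27ac peak had SALL4 peaks at 17.0% and 6.89% for promoters and 26.4% and 12.8% for distal ones. Both sets are made of peaks called in SALL4-WT cells.

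Distal shared sites carried SALL4 more often than promoter ones in both forms. SALL4-WT peaks lay over 95.1% of distal and 79.4% of promoter sites, and SALL4-delN12 peaks over 74.4% and 52.6%. SALL4-WT-only peaks had SALL4-WT at 79.5% and SALL4-delN12 at 20.3% of sites, while SALL4-delN12-only peaks had them at 55.8% and 68.6%. At SALL4-delN12-only sites the classes parted, with 47.6% and 45.2% at promoter sites and 59.2% and 78.3% at distal sites, so SALL4-delN12 was the more frequent form only at the distal ones. At shared sites SALL4-WT was the more frequent form in both classes. As a background, distal ATAC peaks of SALL4-WT cells at day 5 without any H3K27ac peak had SALL4 peaks at 26.4% and 12.8%, and those inside shared distal sites at 93.4% and 71.5%.

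Width made some difference to the overlap. Sites under 1000 bp had SALL4-WT at 74.8% and SALL4-delN12 at 49.8%, and sites of 2000 bp or more at 86.3% and 61.2%. Within the middle 500 bp of each site the shares were 80.8% and 54.8%, near those of whole sites. The median distance of the SALL4-WT peak from the middle of the site was 181 bp at promoter and 119 bp at distal sites, and that of the SALL4-delN12 peak was 270 and 188 bp. SALL4 peaks thus lay near the middle of the acetylated stretch. The SALL4-WT peaks in shared sites had a median score of 229 against 160 outside, and the SALL4-delN12 peaks 196 against 185.

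**Figure D2:**
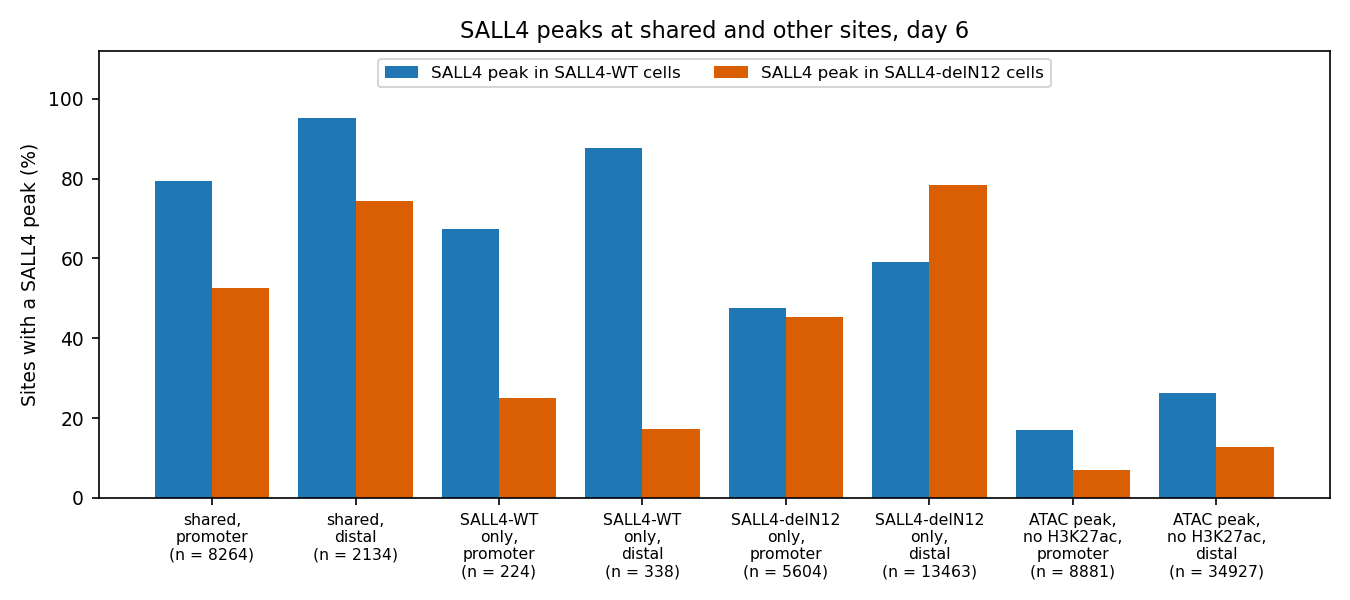
Share of sites (percent, y axis) with a SALL4 peak in SALL4-WT cells and in SALL4-delN12 cells at day 6, for shared, SALL4-WT-only and SALL4-delN12-only H3K27ac sites and for ATAC peaks without H3K27ac, each split into promoter and distal. Shared distal sites have the highest bars for SALL4-WT (95.1%), and SALL4-delN12-only distal sites the highest for SALL4-delN12 (78.3%).

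Most shared sites were open before and throughout the course. The sites were chosen for H3K27ac in both forms at day 6, which disfavors sites closed by then, so these shares are a description. An ATAC peak was present in all 9 libraries, from MEFs to day 11 of both forms, at 9728 sites (93.6%, interval 93.1 to 94.0). This held for 96.5% of promoter and 82.3% of distal sites, and for 47.2% of SALL4-WT-only and 49.5% of SALL4-delN12-only peaks. Library by library, 98.4% to 99.9% of shared promoter sites had an ATAC peak. ATAC peaks inside shared sites also ranked high, with a median score of 384 in SALL4-WT cells at day 5 against 106 for peaks elsewhere.

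Distal sites showed what little course there was. In MEFs, 92.2% of them had an ATAC peak. In SALL4-WT cells the share was 97.0%, 98.9%, 98.6% and 98.0% at days 1, 5, 9 and 11, above MEFs at each day. In SALL4-delN12 cells it was 95.3%, 96.1%, 96.0% and 91.4%, so that it was lowest at day 11 and there close to MEFs. At day 11 a peak was present in both forms at 1941 distal sites, in SALL4-WT alone at 150, in SALL4-delN12 alone at 10 and in neither at 33. Of the distal sites outside all of the named courses, 71 lacked a peak in the SALL4-delN12 library of day 11 and in no other. That library has the fewest ATAC peaks, 78517 against 83821 to 125470 in the others, and its part in this difference was not tested.

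**Figure D3:**
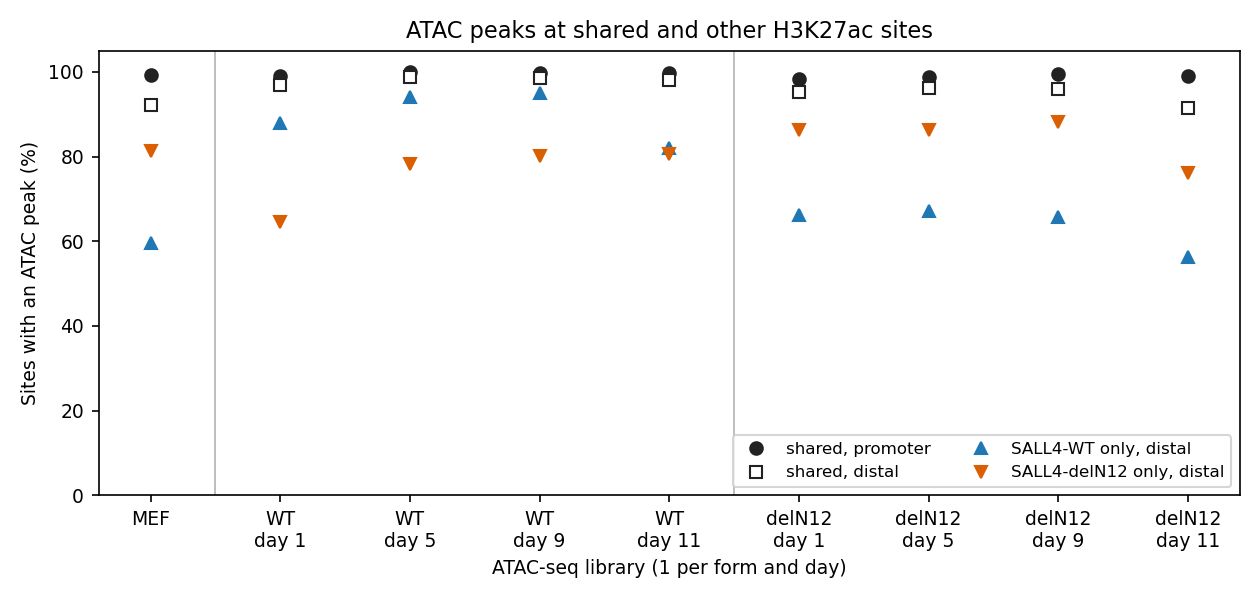
Share of sites (percent, y axis) with an ATAC peak in each of the 9 ATAC-seq libraries (x axis: MEF, then days 1, 5, 9 and 11 of SALL4-WT and of SALL4-delN12) for shared promoter, shared distal, SALL4-WT-only distal and SALL4-delN12-only distal H3K27ac sites. Shared promoter sites stay at 98.4% or above, and shared distal sites range from 91.4% to 98.9%.

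Few shared sites opened or closed, in a set limited by its rule to sites acetylated in both forms at day 6. No MEF peak and a peak at days 9 and 11 of both forms was found at 126 sites (1.21%), 96 of them distal, and these include both sites at Sall4. A MEF peak and none at day 11 of either form was found at 14 sites, 3 promoter and 11 distal, and 10 sites had no ATAC peak in any library. The strongest late-open distal sites were near Gm13469 (chr2:46370491-46372085, scores 302.8 and 362.9) and Depdc5 (scores 286.6 and 651.3), a gene of a complex that restrains mTORC1. A late-open distal site also lay near Tdgf1 (chr9:110937749-110938861, scores 177.7 and 380.6), which encodes the Nodal co-receptor of early embryos. The RNA of Tdgf1 reached at most 0.513 FPKM in the 8 libraries of both forms. Among the sites that lost their MEF peak were 1 near Hoxc4 (chr15:103026938-103028487, scores 123.6 and 269.0) and 1 near Hoxb3 (chr11:96331384-96334443, scores 113.1 and 183.1), homeobox genes of body position.

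SALL4 differed among these courses at distal sites. Late-open distal sites had SALL4-WT at 96.9% and SALL4-delN12 at 68.8%, and distal sites open in all libraries at 96.2% and 80.0%. The 263 distal sites of no named course had them at 89.0% and 41.8%. Of the 11 distal sites that lost the MEF peak, 63.6% had SALL4-WT and 18.2% SALL4-delN12, which is 7 and 2 sites.

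Genes with a shared site at the promoter made up 34.8% of the genes that could be placed, 9318 of 26772, and 40.9% of the protein-coding ones. Most of them were transcribed. At day 5, the RNA-seq day nearest to the Cut&Tag, their median level was 7.86 FPKM in SALL4-WT and 7.73 FPKM in SALL4-delN12 cells, and 86.0% of them reached 1 FPKM in SALL4-WT cells. Of the genes with a SALL4-delN12-only promoter peak 57.3% did, and of those with no H3K27ac peak of this score 12.8%. Read the other way, 66.8% of the genes at 1 FPKM or more in SALL4-WT cells at day 5 had a shared promoter site, and 8.82% of those below. Over 4 bins of genes by the lower of both scores, the median level was 6.57 FPKM in the lowest and 8.85 FPKM in the highest bin.

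Genes with a shared promoter site differed between the forms less often than genes in general. The rule asks for an H3K27ac peak in both forms and so favors genes active in both, which makes this comparison a description. A gene was counted as higher or lower in SALL4-delN12 cells where the difference of log2(FPKM+1) reached 1 and the level reached 1 FPKM in either library. At day 5, 86 of 8153 such genes (1.05%) were higher and 223 (2.74%) lower, beside 4.71% higher and 5.28% lower among all 12667 genes counted. At day 1 the shares were 1.55% and 2.85% beside 4.16% and 5.66%, and at day 9 they were 1.76% and 3.37% beside 6.19% and 5.86%. At day 11, 192 of 8259 (2.32%) were higher and 314 (3.80%) lower, beside 6.64% and 6.64%. Genes with no H3K27ac peak at the promoter were higher in 15.4% and lower in 11.3% at day 5, and genes with a SALL4-delN12-only peak in 7.83% and 8.85%. Genes with shared sites were lower more often than higher at each of the 4 days.

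The shares are also given by range of expression, set by the level in the higher of both libraries, so that a gene enters a range through the form in which it is high and the split is a description. Among genes of 20 FPKM or more at day 5, 1.41% of those with a shared site were higher and 3.13% lower, and of those without 12.3% and 9.35%. Among genes of 1 to under 5 FPKM the shares were 0.709% and 1.56% with a shared site and 10.1% and 8.85% without. With ranges set instead by the mean of the 8 libraries, a split added after seeing the data, genes of 20 FPKM or more were at day 5 higher in 25 and lower in 65 of 2407 with a shared site and in 85 and 75 of 937 without, and genes under 5 FPKM in 1.01% and 2.39% with and in 12.7% and 10.2% without. At day 11 the numbers at 20 FPKM or more were 48 and 69 of 2407 with a shared site and 103 and 60 of 937 without. When genes under 1 FPKM in both libraries are counted too, none of which can reach the difference, no gene is added to those called, and the share lower was 2.39% beside 2.50% among all genes at day 5 and 3.37% beside 3.27% at day 11. With a pseudocount of 0.1 in place of 1, 2.00% of genes with a shared site were higher and 4.23% lower at day 5, beside 7.41% and 8.05% of all genes.

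**Figure D4:**
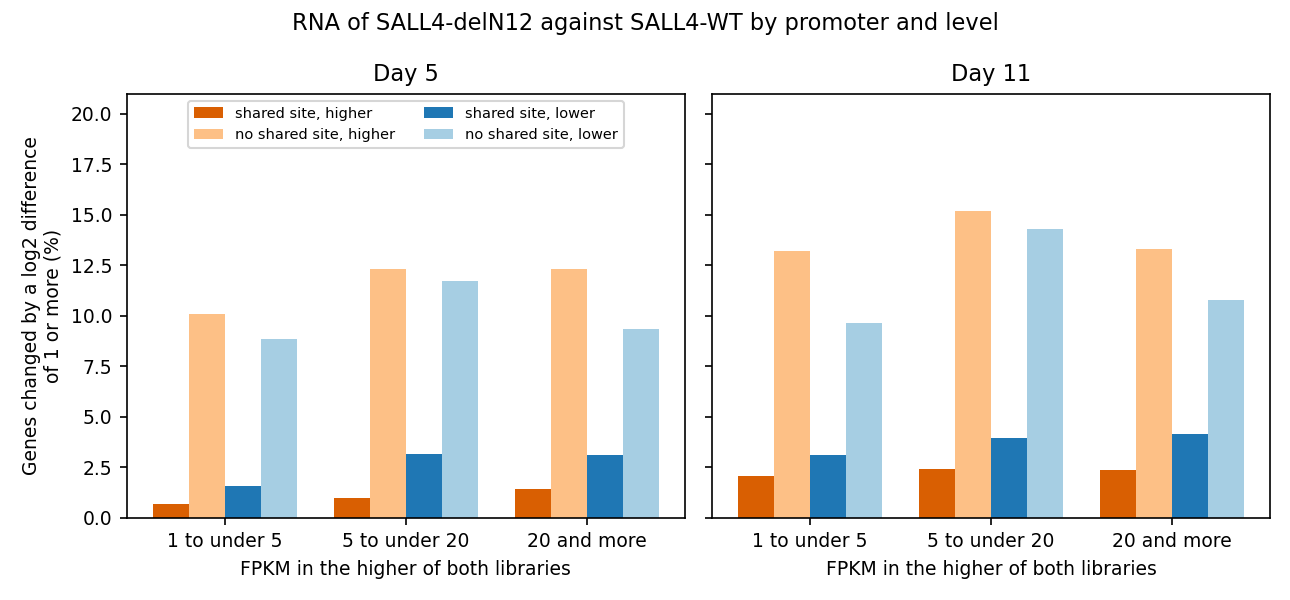
Share of genes (percent, y axis) that were higher or lower in SALL4-delN12 than in SALL4-WT cells by a log2 difference of at least 1, by FPKM in the higher of both libraries (x axis) and by the presence of a shared H3K27ac site at the promoter, at days 5 and 11. Bars of genes with a shared site are the lower ones of each pair, for example 1.41% against 12.3% higher at 20 FPKM or more at day 5.

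Over all genes with a shared site the score ratio showed almost no rank correlation with the RNA difference. Across genes, which are not independent replicates, Spearman's rho between the score ratio and the RNA difference came to 0.04 for day 1, -0.01 for day 5 and 0.01 for day 9. The genes whose site scored lower in SALL4-delN12 cells differed more often in both directions than genes of the other ratio ranges. Of these genes, 9.84%, 7.57%, 9.29% and 8.42% were lower at days 1, 5, 9 and 11 (14 of 185 genes at day 5). The higher ones were 2.73%, 2.16%, 3.28% and 5.26%, from 5, 4, 6 and 10 genes. Among all genes counted, 5.28% were lower and 4.71% higher at day 5. Genes with a ratio under 1 had a median of 14.7 FPKM in SALL4-WT cells at day 5, beside 7.63 FPKM with a ratio over 3. With a ratio of 1 to 1.5, 4.57%, 3.69%, 4.95% and 5.10% were lower and 1.65%, 1.35%, 2.16% and 3.31% higher. With a ratio over 3, 2.54%, 2.75%, 2.26% and 4.17% were lower and 3, 6, 4 and 6 genes higher (6 of 400 at day 5). The ratio is of the scores that chose the sites, so these shares are a description. With SALL4 peaks of both forms at the site 0.885% of genes were higher and 2.58% lower at day 5, and with neither 1.23% and 2.81%.

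Among the 16 gene lists, those of basic cell functions had the highest shares of shared sites. Shared promoter sites were present at 18 of 20 ribosomal protein genes, 18 of 20 proteasome subunit genes, 17 of 18 genes of H3K27 acetylation writers, readers and erasers, and 12 of 15 NuRD subunit genes, beside 34.8% of all genes and 66.8% of those at 1 FPKM or more. None of the proteasome, NuRD or acetylation genes with a shared site passed the difference of 1 at day 5 or day 11, and of the ribosomal ones only Rps18 did. The acetylation genes had medians of 0.03 and -0.02 on the log2 scale at days 5 and 11, and the NuRD genes of 0.03 and 0.17, beside -0.01 and 0.01 over all genes counted. The ribosomal protein genes had medians of -0.16 and 0.45 and the proteasome genes of 0.04 and 0.40, so that both lists lay above the median of all genes at day 11.

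A few genes of these groups show the range of the values. Brd2, a bromodomain reader, had 47.2, 41.3, 50.7 and 41.3 FPKM at days 1, 5, 9 and 11 of SALL4-WT cells and 30.1, 35.8, 38.6 and 40.3 FPKM in SALL4-delN12 cells. Hdac2, a deacetylase of NuRD, had 42.6, 36.1, 36.1 and 29.8 FPKM and 40.5, 39.8, 36.0 and 35.5 FPKM, with site scores of 637.6 and 1166.2. The ranges of Hdac2 overlapped between the forms, whereas Brd2 was lower in SALL4-delN12 cells at each day, without overlap and by less than a difference of 1. Mbd3, the methyl-CpG-binding-domain subunit of NuRD, had 139, 92.8, 88.1 and 74.2 FPKM and 120, 81.6, 93.4 and 86.4 FPKM, with site scores of 111.3 and 574.2, a ratio of 5.16. Rps18 stood at 57.7 FPKM in the SALL4-WT library of day 11 alone and at 426 to 806 FPKM in the other 7 libraries, and Rps28 at 10.6 FPKM in the SALL4-delN12 library of day 5 alone and at 147 to 861 FPKM elsewhere. These single values are uncertain. Both are short genes with near-identical copies in the genome, and the part of such copies in the values was not tested.

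Fibroblast genes with a shared site were more often lower in SALL4-delN12 cells than higher. Of 26 genes of fibroblast matrix and contraction, 8 had a shared site (30.8%, near the 34.8% of all genes) and 11 a SALL4-delN12-only peak. Of the 8, 3 (Fn1, Fbn1 and Thbs1) were lower and 0 higher at both days 5 and 11, beside 5.28% and 6.64% of all genes lower, with medians of -0.78 and -0.48 beside -0.01 and 0.01. The whole list went both ways: of the 26 genes, 5 were higher and 9 lower at day 5, and 5 higher and 10 lower at day 11. Marker genes of macrophages and epithelium were higher in the same SALL4-delN12 libraries. Fn1 had 467, 756, 895 and 958 FPKM at days 1, 5, 9 and 11 of SALL4-WT cells and 218, 87.7, 110 and 87.4 FPKM in SALL4-delN12 cells, without overlap, a difference of -3.09 at day 5 and -3.44 at day 11. The H3K27ac site at its promoter scored 146.0 and 421.0 (chr1:71649500-71654276), was open in the 9 libraries and had SALL4 peaks of both forms. Col1a2, a chain of type I collagen, had 456, 830, 728 and 904 FPKM and 453, 534, 480 and 577 FPKM, less than a difference of 1 at each day. Vim, the intermediate filament gene of mesenchymal cells, had 937, 824, 708 and 575 FPKM and 458, 433, 424 and 470 FPKM, past it at day 1 only. Timp1, an inhibitor of matrix proteases, had 363, 132, 261 and 89.7 FPKM and 276, 99.0, 164 and 104 FPKM. Fbn1, which encodes fibrillin, had a difference of -0.47, -1.96, -1.17 and -1.93 at days 1, 5, 9 and 11, from 38.6 against 9.21 FPKM at day 5, and Thbs1, the gene of thrombospondin, had 97.3, 56.8, 91.7 and 107 FPKM and 43.3, 26.0, 26.9 and 36.4 FPKM, without overlap in either gene.

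Of 16 fibroblast transcription factor and surface genes, 9 had a shared site (56.2%), and 3 of the 9 were lower at day 5 and 2 at day 11, again beside 5.28% and 6.64% of all genes. Over the 16 genes, 1 was higher and 4 lower at day 5, and 0 higher and 3 lower at day 11. Snai2, a repressor of epithelial genes, had 12.5, 84.7, 56.9 and 71.1 FPKM in SALL4-WT and 5.63, 18.6, 17.1 and 29.9 FPKM in SALL4-delN12 cells. Twist1, a mesenchymal helix-loop-helix factor, had 47.0, 118, 123 and 114 FPKM and 28.1, 51.6, 45.9 and 62.4 FPKM. Both were lower in SALL4-delN12 cells at each day, and their sites scored 180.5 and 384.7, and 295.4 and 522.4. Twist2, a close relative of Twist1, had 149, 111, 135 and 71.6 FPKM and 215, 129, 178 and 90.9 FPKM, higher in SALL4-delN12 cells at each day but by less than 1. Cd44, the hyaluronan receptor, had 68.2, 45.1, 58.6 and 36.9 FPKM and 28.0, 17.2, 17.0 and 18.2 FPKM, lower at each day.

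Immediate early genes and signaling genes gave mixed values. Of 18 AP-1 and immediate early genes 7 had a shared site (38.9%, near the 34.8% of all genes), and 1 was higher and 3 lower at day 5, when 4.71% of all genes were higher and 5.28% lower. At day 11, 0 of the 7 were higher and 1 lower, beside 6.64% of all genes in each direction. Fos, which encodes an AP-1 subunit, had 26.0, 85.4, 65.7 and 74.0 FPKM in SALL4-WT and 21.6, 32.9, 15.7 and 49.8 FPKM in SALL4-delN12 cells, lower at each day. Its partner Jun had 31.7, 61.1, 62.6 and 52.3 FPKM and 35.2, 43.5, 36.4 and 50.7 FPKM, within a difference of 1 throughout. Egr1, a growth factor response gene, had 70.8, 58.4, 52.3 and 54.5 FPKM and 41.6, 12.3, 6.72 and 22.6 FPKM. Dusp1, a phosphatase that turns off MAP kinases, was the 1 that was higher, with 45.8, 39.4, 53.4 and 45.9 FPKM and 116, 86.2, 80.7 and 91.4 FPKM. Of 15 genes of BMP signaling 8 (53.3%) had a shared site and 2, Smad6 and Id4, were lower at day 5 and 0 at day 11. Smad6, an inhibitory SMAD, had 20.1, 22.0, 22.7 and 16.7 FPKM and 6.02, 7.36, 8.78 and 16.4 FPKM, so that its values met at day 11. Of 14 genes of senescence and the p53 pathway 6 (42.9%) had a shared site, and Cdkn2b, a cyclin-dependent kinase inhibitor, was the 1 that was lower at days 5 and 11, with 83.7, 74.3, 107 and 88.8 FPKM against 26.7, 27.7, 38.9 and 40.9 FPKM. Its neighbor Cdkn2a had 177, 258 and 282 FPKM at days 5, 9 and 11 and 127, 185 and 193 FPKM, a smaller difference.

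Lists of other lineages held 0 to 3 genes with a shared site each. Among all genes 34.8% had one, and 8.82% of those under 1 FPKM in SALL4-WT cells at day 5. Of 20 primitive endoderm genes, shared sites were present at Gata6, Lama1 and Lamc1, 7 genes had a SALL4-delN12-only peak and 10, among them Gata4 and Sox17, no peak of this score. Lama1 had 1.30, 1.65, 1.84 and 3.38 FPKM in SALL4-WT cells and 1.31, 2.35, 19.0 and 50.2 FPKM in SALL4-delN12 cells, equal at day 1 and apart from day 9. Its promoter site (chr17:67696659-67697838, scores 115.4 and 223.9) was open in all 9 libraries, MEFs included, before this difference. Lamc1, which encodes a laminin gamma chain, had 75.8, 95.3, 86.6 and 87.3 FPKM and 63.5, 68.8, 99.1 and 119 FPKM. Of 20 pluripotency genes the Krueppel-like factor genes Klf2, Klf4 and Klf5 had a shared site, and 12, among them Nanog and Sox2, had no peak of this score. Klf4 had 12.1, 12.8, 19.1 and 19.9 FPKM and 3.64, 2.45, 8.08 and 17.5 FPKM, lower in SALL4-delN12 cells and nearly level by day 11. Klf2 was lower at day 5, with a difference of -1.08, and higher at day 11, with 1.32.

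Marker genes of cell types that a fibroblast culture could also hold had shared sites at 1 of 10 for endothelium (Kdr), 0 of 10 for macrophages and blood, 1 of 10 for epithelium (Cldn6) and 0 of 10 for muscle. The RNA of the macrophage list was nevertheless present, with a summed level of 168 to 384 FPKM in the 4 SALL4-WT and 404 to 1174 FPKM in the 4 SALL4-delN12 libraries. At day 1 the sums of SALL4-WT and SALL4-delN12 cells were close, 384 and 404 FPKM, and at day 5 they were 198 and 508 FPKM. In SALL4-delN12 cells 7 of 10 genes were higher at day 5 and 9 at day 11 (4.71% and 6.64% of all genes were), and none was at 0 throughout. Among these, C1qa, a complement gene of macrophages, had 3.88 FPKM in SALL4-WT and 116 FPKM in SALL4-delN12 cells at day 11. The epithelial list summed to 148 to 197 FPKM and 883 to 1049 FPKM, with 8 of 10 genes higher at day 5 and 9 at day 11 and none at 0 throughout, for example Krt8, a keratin, with 11.3 and 166 FPKM at day 5. The endothelial list reached at most 17.9 FPKM in SALL4-WT and 24.5 FPKM in SALL4-delN12 libraries, with 1 gene higher and 0 lower at day 5 and 3 and 1 at day 11. The muscle list, in which Myf5 was listed at 0 in the 8 libraries, summed to 17.5 to 23.7 FPKM and 48.9 to 54.8 FPKM. Its genes went both ways, with 2 higher and 2 lower at day 5 and 2 higher and 1 lower at day 11. The part of these cells or transcripts in the lower fibroblast genes, in Cldn6 and in the H3K27ac and ATAC-seq values was not tested. Cldn6, a claudin of embryonic epithelia, had 0.253, 0.790, 1.35 and 2.42 FPKM in SALL4-WT and 0.445, 7.01, 12.9 and 75.7 FPKM in SALL4-delN12 cells, a difference of 4.49 at day 11. Its site was strong in both forms (chr17:23673175-23678055, scores 359.3 and 688.9) and open in the 9 libraries. Cldn6 and Lama1 had the largest differences toward SALL4-delN12 at day 11 among genes with a shared site and 5 FPKM or more, followed by Rps18 and by Habp2, a secreted protease gene with 0.685 FPKM in SALL4-WT and 9.93 FPKM in SALL4-delN12 cells at that day. Cldn6 and Lama1 were little transcribed in SALL4-WT cells at the day nearest to the H3K27ac measurement.

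Of the 7836 genes with a shared promoter site that could be counted at all 4 days, 10 (0.128%) were higher in SALL4-delN12 cells at each day and 55 (0.702%) lower, beside 1.11% and 1.18% of all 11489 genes counted. The 10 are Bdh1, Bmp7, Cyp27a1, Gja5, Mir6913, Nfatc4, Sdr39u1, Serpinb9b, Sik1 and Slc2a3. Bmp7, a ligand of the BMP family, had 3.75, 23.8, 19.2 and 20.4 FPKM and 76.9, 99.0, 128 and 66.0 FPKM, with nearly equal site scores of 126.4 and 126.1. Gja5, which encodes a gap junction connexin, had 3.15, 2.44, 4.27 and 2.77 FPKM and 10.8, 28.2, 15.8 and 9.38 FPKM, and Cyp27a1, a sterol hydroxylase of bile acid synthesis, had 0.857, 1.52, 1.90 and 2.95 FPKM and 6.48, 17.1, 32.8 and 14.7 FPKM. In these 3 genes the values of the forms did not overlap, which is a description only, since the genes were picked for a difference at each day. Serpinb9b, a serpin gene, had 1.96, 1.66, 2.83 and 4.03 FPKM and 9.42, 13.8, 14.3 and 16.3 FPKM.

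Among the 55 lower genes was Bmp2, another BMP ligand, with 48.1, 57.5, 73.4 and 45.4 FPKM in SALL4-WT and 1.20, 4.19, 4.40 and 3.90 FPKM in SALL4-delN12 cells, a difference of -3.50 at day 5. Bmp7 and Bmp2, both with a shared site, thus differed in opposite directions. Cebpd, a factor of the acute phase response, had 15.1, 52.9, 30.6 and 45.0 FPKM and 5.45, 7.84, 5.08 and 15.1 FPKM. Lbp, the lipopolysaccharide binding protein, had 19.5, 65.8, 67.4 and 94.4 FPKM and 4.32, 11.2, 6.45 and 8.75 FPKM, and Prss23, a secreted protease, had 47.1, 33.9, 27.3 and 38.1 FPKM and 13.6, 3.14, 3.29 and 2.29 FPKM. Serping1, an inhibitor of complement C1, had 71.3, 203, 288 and 377 FPKM and 8.25, 22.1, 37.1 and 71.0 FPKM. Cxcl1, a neutrophil chemokine, and Ptgs2, the inducible cyclooxygenase, were also among them.

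Of the sites of these 55 genes 49 had the higher H3K27ac score in SALL4-delN12 cells, as did 96.8% of all shared sites, and their median ratio was 1.87 beside 1.97, values of the scores that chose the sites. Of the 55 sites 45 had a SALL4-WT peak, 31 a SALL4-delN12 peak and 50 an ATAC peak in the 9 libraries. Among all shared promoter sites these shares were 79.4%, 52.6% and 96.5%. Of the 10 sites of the higher genes, 8 had the higher score in SALL4-delN12 cells, with a median ratio of 2.12, and 8 were open in all libraries.

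**Figure D5:**
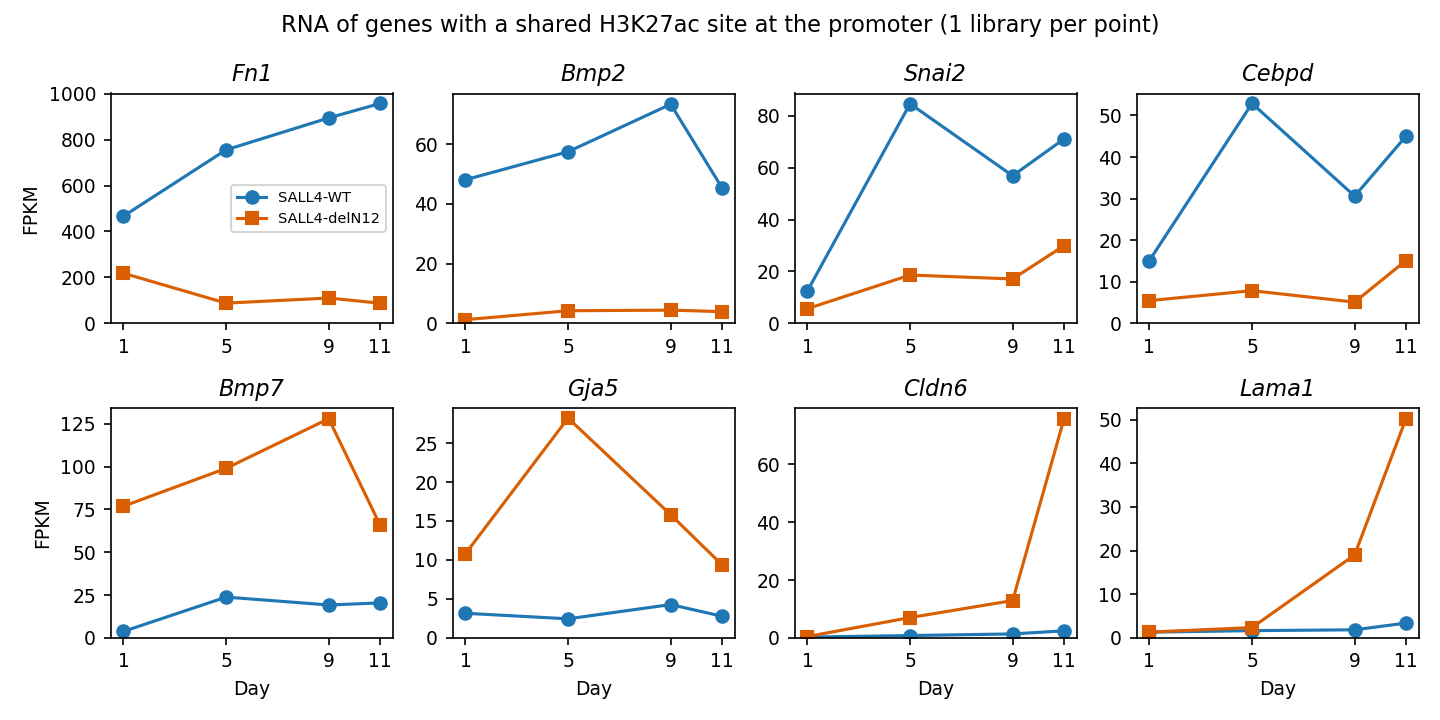
RNA level in FPKM (y axis, from 0, 1 library per point) at days 1, 5, 9 and 11 (x axis) in SALL4-WT and SALL4-delN12 cells for 8 genes with a shared H3K27ac site at the promoter. Fn1, Bmp2, Snai2 and Cebpd lie lower in SALL4-delN12 cells at every day, Bmp7 and Gja5 higher, and Cldn6 and Lama1 part from day 5 or 9 on to reach 75.7 and 50.2 FPKM at day 11.

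Genes nearest to distal shared sites were less steady than those with shared promoter sites. The nearest genes numbered 1177, of which 577 had a shared promoter site as well. At day 5, 792 of them could be counted, and 5.30% were higher and 7.95% lower in SALL4-delN12 cells, near the 4.71% of all genes for the higher and above the 5.28% for the lower ones. At day 11 the shares were 5.32% and 9.52%, beside 6.64% for each direction. Among them, Col1a1, the other chain of type I collagen, had a distal site (chr11:94927286-94929522) whose scores were higher in SALL4-WT cells, 314.4 against 201.2. The RNA of Col1a1 went the other way and was higher in SALL4-delN12 cells at each day. It had 472, 693, 727 and 755 FPKM in SALL4-WT and 1666, 1424, 1356 and 1065 FPKM in SALL4-delN12 cells. The distal sites nearest to Cubn, a receptor of endoderm, had scores of 260.7 and 765.1, and of 129.0 and 636.4, and were open in all libraries. They lay 83876 and 70265 bp from its start site, and its RNA reached at most 0.443 FPKM in both forms. Assigning a distal site to the nearest start site does not show that it acts on that gene.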

How the data were processed

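Cut&Tag and ATAC-seq (100000 cells per sample) and RNA-seq were analysed from the deposited files. The authors trimmed reads with Trim Galore 0.6.4, mapped DNA reads to mm10 with Bowtie2 2.4.5, filtered them with SAMtools 1.16.1 and called peaks with MACS 1.4.2, after merging Cut&Tag replicates, and deposited peak lists with a score per peak (lowest 50). The authors mapped RNA reads with HISAT2 2.2.1 and deposited FPKM values from StringTie 2.2.1. Read numbers, and so depth, are unknown. The tables of other factor sets and of single cells and 17 FPKM columns were not used.

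Overlaps (at least 1 bp), medians and exact (Clopper-Pearson) 95% intervals were computed with Python 3.11.15, pandas 2.3.3 and scipy 1.17.1, after the overlap code had been tested on simulated data. Promoters were 2 kb to each side of GENCODE start sites, and 26772 of 35976 genes matched by symbol. RNA differences are on the log2(FPKM+1) scale, which understates changes of low genes. Members and the 16 gene lists were chosen with earlier results of these data known. Named sites are the 5 promoter and 5 distal ones with the highest lower score. Named genes are up to 4 of each list by FPKM, the 5 largest rises and falls at days 5 and 11 with at least 5 FPKM, and, chosen after their values were seen, genes that differed at all 4 days, and Fbn1, Thbs1, Id4, Depdc5, Tdgf1, Hoxc4, Hoxb3, and the other genes named for distal sites. Noncoding RNA genes among these rises and falls are left out as uncertain.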

Additional observations from a re-analysis of the deposited data

How the results depend on the processing

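Each form and day has 1 sample, so there are no replicates to pair by number or to leave out, and a fit of the 4 days of RNA-seq with day as a block was not run. Of 54 alternative values, 21 kept within counting error or 1.5 times the value given, and 33 moved. The count of shared sites was 17628 with every deposited H3K27ac peak and 4483 at a score minimum of 200. The promoter share was 92.7% at that minimum, 77.4% with promoters of 500 bp and 75.2% with protein-coding start sites only. The SALL4-WT share was 94.5% with every SALL4 peak, 50.2% at a SALL4 score of 200, 89.4% at an H3K27ac score of 200 and 80.8% in the middle 500 bp, and the SALL4-delN12 share was 76.7%, 27.8%, 64.8% and 54.8%, lower than SALL4-WT under each. The share open in all 9 libraries was 84.7% at an ATAC score of 100, 98.9% at an H3K27ac score of 200 and 74.2% in the middle 500 bp. With a pseudocount of 0.1, 2.00% of genes were higher and 4.23% lower at day 5 and 3.86% and 6.14% at day 11, below the share of all genes in each case. At an H3K27ac score of 200 these shares were 0.534%, 1.60%, 1.65% and 2.53%. Without an FPKM filter the share lower at day 11 was 3.37%, above the 3.27% of all genes, since genes under 1 FPKM, which cannot be called, enter both denominators. At 20 FPKM or more, an alternative chosen after seeing the data like those on Sall4, scaffolds and protein-coding genes, 1.41% were higher and 3.13% lower at day 5. At a mean of 20 FPKM or more over the 8 libraries, also added then, 1.99% were higher and 2.87% lower at day 11. The median score ratio was 1.87 and the width ratio 1.12 at a score of 200. In windows of 100 bp the GC box share was 36.5% (23.1% of all promoter peaks) and the AP-1 share 29.1% (28.0% of all distal peaks).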

Other observations

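Some distal shared sites had the same nearest gene: 4 each had Mical3, Myof, Rbms1, Sp3os and Gm38399. These are counts, without a comparison with other distal sites or with the span of each gene. The 4 at Myof, which encodes the membrane repair protein myoferlin, lay on chromosome 19 and all had a SALL4-WT peak, and 3 had a SALL4-delN12 peak and an ATAC peak in the 9 libraries. The 4 near Sp3os, antisense to the gene of the GC box factor SP3, all had SALL4 peaks of both forms and ATAC peaks in the 9 libraries.

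Shared distal sites also lay near marker genes of lineages with no promoter peak of this score or a SALL4-delN12-only one, each open in the 9 libraries: a site near Tek, an angiopoietin receptor gene of endothelium, scored 209.6 and 374.8, and a site near Krt18, a keratin gene of simple epithelia, scored 152.1 and 618.4. A site near Ankrd1, a target gene of YAP and TEAD, scored 253.0 and 441.9.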
